A study of Mus musculus with 28 samples.

Results

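The olfactory receptor genes of mouse chromosome 2 are described here by their position in H3K9me2 domains. They were chosen as the protein-coding genes of chromosome 2 whose symbol starts with Olfr, with no measured value used, and there were 294 of them among 21755 protein-coding genes on chromosomes 1 to 19 and X. They made up 294 of the 1135 protein-coding Olfr genes. The domains come from mouse embryonic stem cells (mESCs) derived from the KH2 line (a C57BL/6J x 129S1 F1 hybrid, BL6/129 in the labels) and grown with FBS and LIF, in which the endogenous Ehmt2 gene was extended with the FKBP12F36V degron, 2 HA tags and mCherry. EHMT2 (G9a) is a histone methyltransferase, and dTAG-13 is a small molecule that leads the tagged protein to degradation, with DMSO as its solvent control. All sorted cells also carried a MERVL-GFP reporter, came from 1 clone, and were kept for 72 h in DMSO or dTAG-13 before the sort. Cells without GFP were taken as mESCs, and cells with GFP as 2-cell-like cells (2CLCs), an infrequent cell state of these cultures with features of the 2-cell embryo. Each sorted condition has 3 immunoprecipitation and 3 input libraries made by ULI-NChIP, in which chromatin of few cells is immunoprecipitated without crosslinking. A further 2 immunoprecipitation and 2 input libraries came from unsorted mESCs after 24 h in DMSO. The labels add that TTNBP, an agonist of retinoic acid receptors, was given in 2 of the replicates, without naming them, whereas the study's methods describe its use for the sorted cells with no such limit. The sorted conditions may therefore hold libraries with and without it.

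Each condition is represented by a single list of domain positions, with no value per library and no signal height. Spread between replicates could therefore not be computed, no test compares the conditions, and every difference below is a difference between lists. The lists hold no expression values, so the labelled cell states and the loss of EHMT2 could not be checked in them. A 5th list names neither a cell state nor a treatment, is called the unnamed set, and was assigned to no condition. A gene is called inside a domain where its annotated start (GENCODE M21, mm10) lies in one. A gene left the domains between a pair of lists where its start was inside in the first and outside in the second, and entered them in the opposite case. How deeply the libraries behind the lists were sequenced is unknown. Where 4 values stand together without labels, they are in the order of mESCs in DMSO and in dTAG, followed by 2CLCs in DMSO and in dTAG.

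Olfactory receptors are G protein-coupled receptors that bind odorants on sensory neurons of the nose. Each mature neuron expresses mainly a single allele of a single receptor gene, while the other receptor genes stay silent in heterochromatin marked by H3K9 methylation. The genes arose by tandem duplication and stand in clusters on many chromosomes. H3K9me2, the dimethylated form of lysine 9 of histone H3, is deposited in euchromatin by EHMT2 together with its partner EHMT1 and forms broad domains over silent regions. Embryonic stem cells are not olfactory cells, and whether the receptor genes were expressed in them was not measured here.

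The 294 genes stood in 3 clusters, defined by gaps of over 1 Mb between neighbouring starts. The first ran from Olfr338 to Olfr368 (chr2:36373519-37332772, 959 kb) and held 28 genes. The second ran from Olfr987 to Olfr1274-ps (chr2:85330779-90403897, 5073 kb) and held 227 genes. The third ran from Olfr1275 to Olfr1318 (chr2:111230360-112159157, 929 kb) and held 39 genes. Neighbouring clusters were 48.0 Mb and 20.8 Mb apart, while the largest spacing inside a cluster was 136 kb and the median spacing was 20.3 kb. On the plus strand there were 116 genes, and 178 were on the minus strand. The genes were compact, with a median annotated length of 5768 bp and a median coding length of 936 bp, and 285 of 294 had their coding sequence in a single exon. Between the first and last gene of the second cluster lay 7 other protein-coding genes, among them Pramel6 and Pramel7, and the other clusters held none.

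Shown here are 5 gene starts with their sequence, 250 bases before to 50 after the annotated start in the direction of transcription, read from GRCm38.p6. The annotated start need not be where transcription begins. For some members the annotated gene is little longer than its coding sequence, as at Olfr340 (939 bp, 936 bp coding) and Olfr996 (1068 bp, 942 bp coding). Olfr996 and Olfr1257 are shown because their starts were inside domains in some sorted conditions and outside in others. Olfr152 stands in the middle of the largest cluster and was inside in all of them. Olfr998 and Olfr48 are the nearest members to Olfr996 and Olfr1257 whose starts were inside domains in all 4 sorted conditions. Capitals mark matches to TAATTA, the core bound by homeodomain proteins, and to TATAAA, the sequence of the TATA box. Matches were taken on either strand and anywhere in the window, so a match to TATAAA need not be a TATA box.
Olfr996 (chr2:85578965-85579264, plus strand): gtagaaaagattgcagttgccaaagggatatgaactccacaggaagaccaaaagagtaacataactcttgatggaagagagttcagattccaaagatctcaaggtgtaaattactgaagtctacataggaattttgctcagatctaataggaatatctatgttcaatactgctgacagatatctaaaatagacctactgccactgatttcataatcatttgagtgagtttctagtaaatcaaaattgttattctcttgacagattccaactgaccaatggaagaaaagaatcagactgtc
Olfr998 (chr2:85588698-85588997, plus strand): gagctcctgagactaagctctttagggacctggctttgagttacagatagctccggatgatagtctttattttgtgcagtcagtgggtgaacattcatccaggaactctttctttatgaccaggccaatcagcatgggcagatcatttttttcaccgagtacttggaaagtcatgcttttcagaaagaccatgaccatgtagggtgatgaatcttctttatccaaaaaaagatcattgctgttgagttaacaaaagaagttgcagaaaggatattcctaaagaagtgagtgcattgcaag
Olfr1257 (chr2:89878187-89878486, plus strand): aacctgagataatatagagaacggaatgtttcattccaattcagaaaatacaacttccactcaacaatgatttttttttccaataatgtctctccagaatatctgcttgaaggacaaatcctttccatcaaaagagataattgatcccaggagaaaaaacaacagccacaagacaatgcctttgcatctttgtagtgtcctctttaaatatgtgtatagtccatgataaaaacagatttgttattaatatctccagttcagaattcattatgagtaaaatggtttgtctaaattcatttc
Olfr48 (chr2:89848156-89848455, minus strand): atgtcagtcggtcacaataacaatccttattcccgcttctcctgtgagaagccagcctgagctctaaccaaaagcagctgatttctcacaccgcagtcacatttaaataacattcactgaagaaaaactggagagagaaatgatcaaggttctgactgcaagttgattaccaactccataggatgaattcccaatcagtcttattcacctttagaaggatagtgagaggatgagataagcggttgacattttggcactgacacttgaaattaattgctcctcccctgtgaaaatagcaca
Olfr152 (chr2:87779233-87779532, plus strand): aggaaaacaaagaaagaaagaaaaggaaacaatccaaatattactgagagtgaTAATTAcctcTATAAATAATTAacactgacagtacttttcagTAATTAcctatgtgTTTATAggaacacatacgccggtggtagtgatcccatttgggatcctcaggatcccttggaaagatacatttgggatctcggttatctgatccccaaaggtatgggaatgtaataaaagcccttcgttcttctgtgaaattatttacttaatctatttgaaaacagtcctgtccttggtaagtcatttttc

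These 5 windows were rich in A and T, with a GC content of 35.3% at Olfr996, 41.0% at Olfr998, 32% at Olfr1257, 41.7% at Olfr48 and 35.7% at Olfr152. Over all 294 members the median GC content of such windows was 34.3% (range 23.3% to 52.7%), against 56.7% over the 1549 other protein-coding genes of chromosome 2. TAATTA was found in 98 of 294 windows (33.3%) and in 3.94% of the windows of the other genes. TATAAA, added to the motifs after the first ones had been chosen, was found in 133 windows (45.2%) and in 9.30% of the other genes' windows. The palindromic core of the site bound by olfactory/early B-cell factors (TCCC followed by GGGA, separated by any 2 bases) was found in 5 windows (1.70%) and in 0.71% of the others. Motifs made only of A and T occur more often in sequence poor in G and C, and the motif shares were not adjusted for base composition. Members whose annotated start lies at or near the coding sequence were kept in these shares, and their windows may not lie before the start of transcription. Among the starts shown, Olfr152 held 3 matches to TAATTA and 2 to TATAAA, and the windows of the other 4 held none of the searched motifs.

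To ask where these genes lie relative to H3K9me2 domains, each start was placed in each list. In mESC DMSO, 293 of 294 starts (99.7%) were inside domains, with an exact 95% interval of 98.1% to 100.0% that counts genes only. In mESC dTAG the count was also 293 (99.7%). All 294 starts (100.0%) were inside in 2CLC DMSO, and 293 (99.7%) in 2CLC dTAG. In the unnamed set, 281 starts (95.6%, interval 92.6% to 97.6%) were inside. Of all 21755 protein-coding genes, 22.3%, 23.6%, 23.2% and 26.5% were inside domains, and 30% in the unnamed set. Neighbouring receptor genes share domains, so the genes are not independent and the intervals are narrower than the number of separate regions would give.

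**Figure D1:**
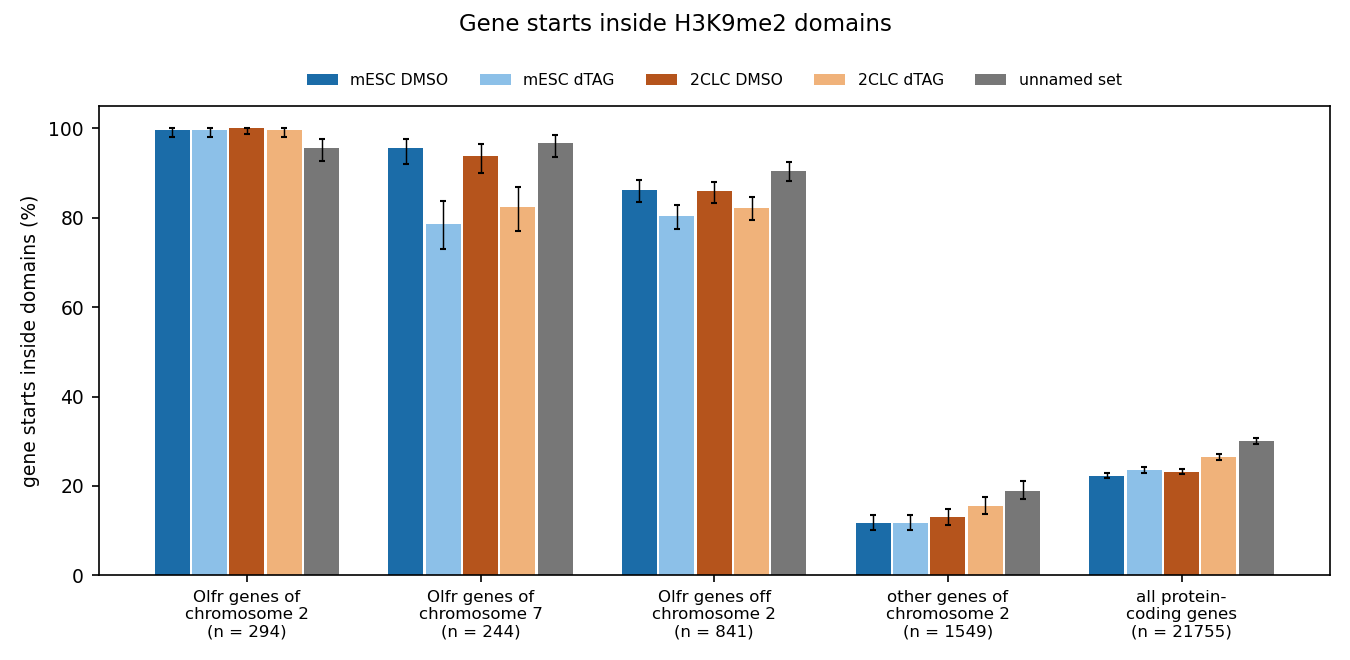
Percent of gene starts inside H3K9me2 domains (y axis) in each of the 5 lists (colours), for 5 groups of genes (x axis), with bars from 0 and exact 95% intervals that count genes only. The chromosome 2 Olfr genes stand at 99.7% to 100.0% in the 4 sorted lists, while the Olfr genes of chromosome 7 range from 78.7% to 95.5%.

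In all 4 sorted conditions together, 292 of the 294 starts (99.3%) were inside domains, against 15.1% of all protein-coding genes. The 1549 other protein-coding genes of the same chromosome stood at 6.26%. Chromosome 2 also holds 76 Olfr genes annotated as pseudogenes, which lie among the members, and 76 of 76 were inside in each sorted condition. The starts that differed between sorted conditions were those of Olfr996 and Olfr1257, 2 of 294 (0.68%), against 19.1% of all protein-coding genes and 15.9% of the other genes of chromosome 2.

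To ask what EHMT2 depletion did to the placement of these genes, dTAG was compared with DMSO in each cell state. In mESCs, 0 of the 293 receptor genes inside domains left them, and the 1 gene outside did not enter. Of all protein-coding genes 5.08% left, which is 22.7% of those inside in DMSO, and 6.32% entered. In 2CLCs, 1 of 294 receptor genes (Olfr996) left, against 4.25% of all genes, or 18.3% of those inside in DMSO. No receptor gene was outside in 2CLC DMSO, so none could enter, while 7.52% of all genes entered. With at most 1 receptor gene outside in any sorted condition, the counts of genes that entered are set by this ceiling and are not read against those of all genes. The cell states were compared in the same way. From mESC DMSO to 2CLC DMSO, 1 receptor gene (Olfr1257) entered and 0 left, against 3.99% and 3.10% of all genes. From mESC dTAG to 2CLC dTAG, Olfr1257 entered and Olfr996 left, against 6.24% and 3.32% of all genes. These 4 comparisons share lists, so the 2 genes recur in them. No comparison took a whole cluster into or out of domains. The study reported that EHMT2 depletion lowered the global level of H3K9me2 in both cell states. The lists hold no signal height, so an unchanged placement does not mean an unchanged amount of the mark over the clusters.

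The first cluster, Olfr338 to Olfr368, was the simplest. A single domain held all 28 genes in each sorted condition, with a width of 1130, 1100, 1145 and 1115 kb. It began 136, 106, 156 and 121 kb before the first gene and ended 35.2, 35.2, 30.2 and 35.2 kb after the last gene. The widths thus differed by at most 45 kb, or 9 bins of 5 kb, and most of this was at the edge before Olfr338. On that side the edge of the dTAG domain lay closer to the genes than that of the DMSO domain, in mESCs as in 2CLCs. The largest difference in coverage of the 350 kb on that side was between 2CLC DMSO (44.5%) and mESC dTAG (31.4%).

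The third cluster, Olfr1275 to Olfr1318, was likewise held by a single domain in each sorted condition, with all 39 genes inside. Its width was 1155, 1160, 1175 and 1170 kb. The domain began between 163 and 173 kb before Olfr1275. It ended 58.7 kb after Olfr1318 in both mESC lists and 78.7 kb after it in both 2CLC lists, so that the edges of this cluster moved by at most 4 bins.

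The second cluster, Olfr987 to Olfr1274-ps, showed all of the differences between gene starts. In 2CLC DMSO a single domain of 5315 kb held its 227 genes and covered 100.0% of the span. In mESC DMSO 4 domains held 99, 43, 67 and 17 genes and covered 98.7%. The domains of mESC dTAG were 2, with 209 and 17 genes, and covered 98.9%. In 2CLC dTAG 4 domains held 6, 25, 4 and 191 genes and covered 98.4%. The widest domain over this cluster was 2220, 4585, 5315 and 4355 kb wide. In the last 3 lists it was the widest domain of chromosome 2, and in mESC DMSO it ranked 3rd. The number of separate domains over the cluster thus fell from 4 to 2 between DMSO and dTAG in mESCs and rose from 1 to 4 in 2CLCs. The fall in mESCs came from 2 breaks of a single 5 kb bin, and 2 of the 3 breaks in 2CLC dTAG were also single bins. The number was not recomputed with such breaks closed, so its direction rests largely on single bins. On the whole chromosome the number of domains rose in both states, from 274 to 455 in mESCs and from 307 to 598 in 2CLCs.

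**Figure D2:**
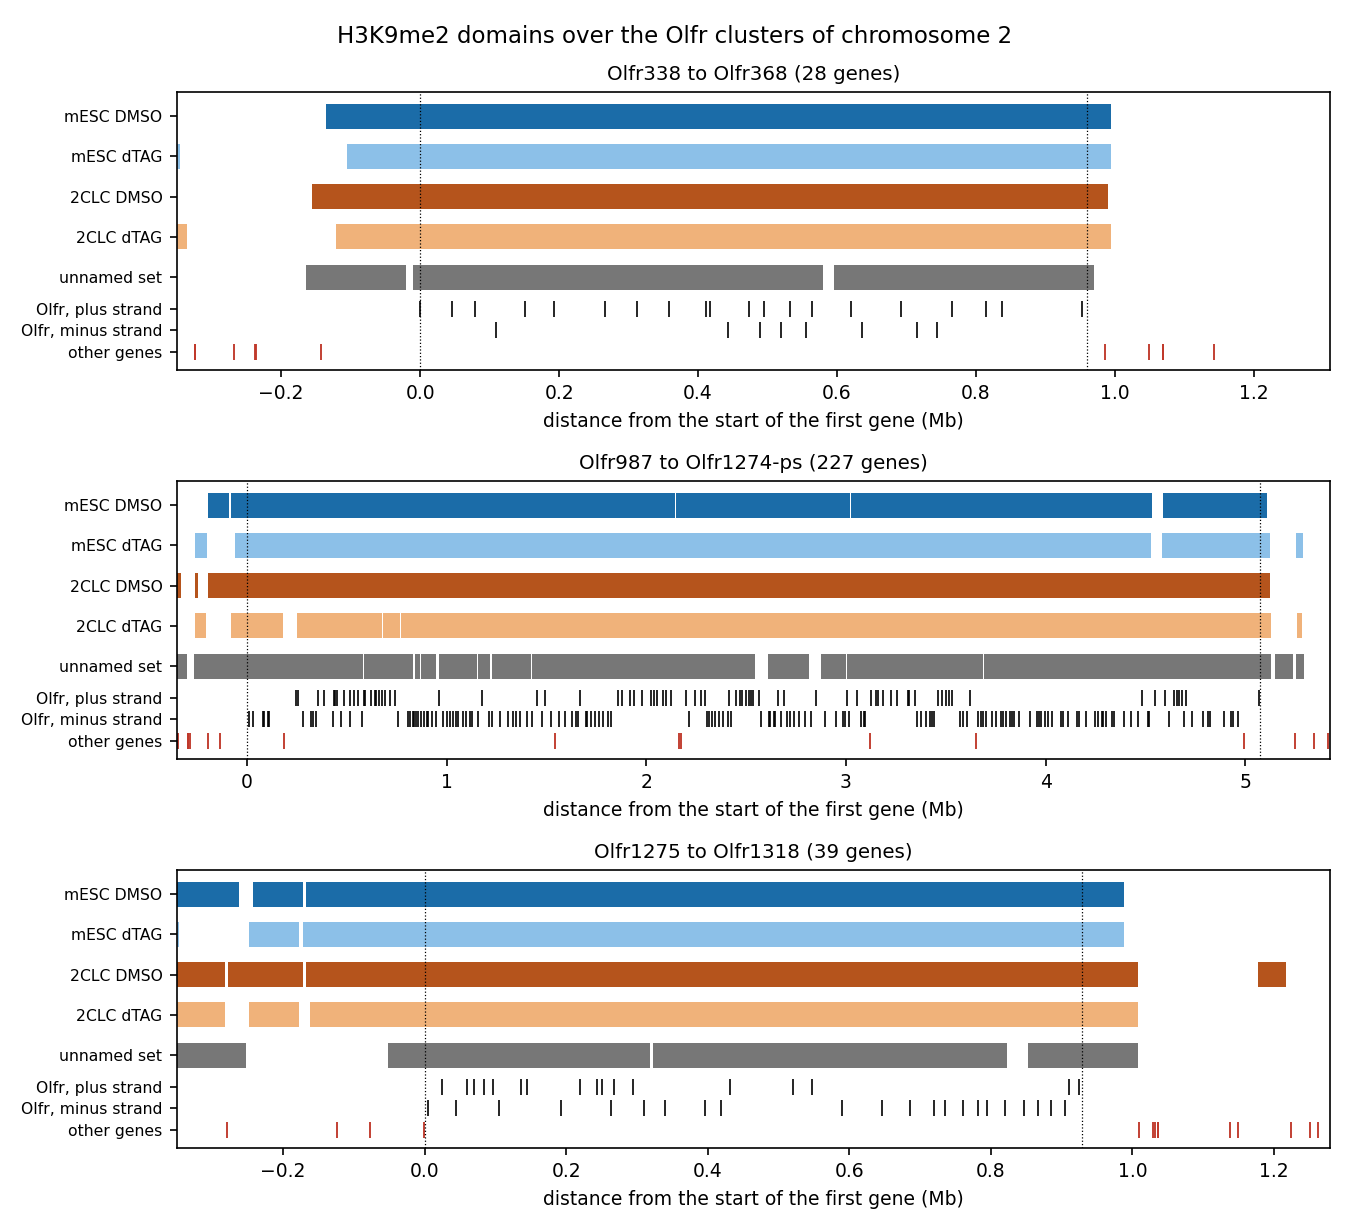
Domains of the 5 lists (coloured bars) over the 3 clusters and the 350 kb on either side, with the starts of Olfr genes by strand (black ticks) and of other protein-coding genes (red ticks). The x axis gives the distance from the first gene of the cluster in Mb, and dotted lines mark the first and last gene. The bars of the sorted lists run through the 28 genes and the 39 genes of the outer clusters, and the breaks lie in the cluster of 227 genes.

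The uncovered stretches inside the clusters were few. The sorted lists had 7 in all, 3, 1, 0 and 3, and all lay in the second cluster. Of these, 4 were a single bin of 5 kb with no gene start in it. The 2 single bins of mESC DMSO lay at chr2:87472862-87477861 and chr2:88352861-88357860. Those of 2CLC dTAG lay at chr2:86007864-86012863, which touches Olfr1032, and at chr2:86097864-86102863. The other 3 were 55 kb or wider and held the starts of Olfr1257 and Olfr996.

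Olfr1257 (ENSMUSG00000049057.4, chr2:89878437-89883026, plus strand) was outside domains in both mESC lists and inside in both 2CLC lists. In mESC DMSO its gene lay in an uncovered stretch of 55 kb (chr2:89862859-89917858), 15.6 kb from the nearer edge. In mESC dTAG the stretch was also 55 kb and lay 1 bin earlier (chr2:89857859-89912858), which put the start 20.6 kb from the edge. No other gene start lay in either stretch. Domains covered 45.0%, 45.0%, 100.0% and 100.0% of the 100 kb around its start. Both mESC values were thus below both 2CLC values, irrespective of treatment. The neighbours Olfr48 and Olfr1258 were inside domains in all 4, at 14.7 and 9.45 kb from the edge in mESC DMSO and 9.65 and 14.5 kb in mESC dTAG.

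Olfr996 (ENSMUSG00000111179.1, chr2:85579215-85580282, plus strand) was inside domains in mESC DMSO, mESC dTAG and 2CLC DMSO and outside in 2CLC dTAG. There it lay in an uncovered stretch of 70 kb (chr2:85512864-85582863), 3.65 kb from the nearer edge, less than 1 bin. Domains covered 100.0% of the 100 kb around its start in each of the first 3 and 46.4% in 2CLC dTAG. The stretch also held the start of 4833423E24Rik, a protein-coding gene of another family, which changed in the same way. The next receptor genes were Olfr995, 69.2 kb inside the domain before the stretch, and Olfr998, 6.08 kb inside the one after it. Because of the short distance, lengthening every domain by 1 bin put Olfr996 back inside.

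**Figure D3:**
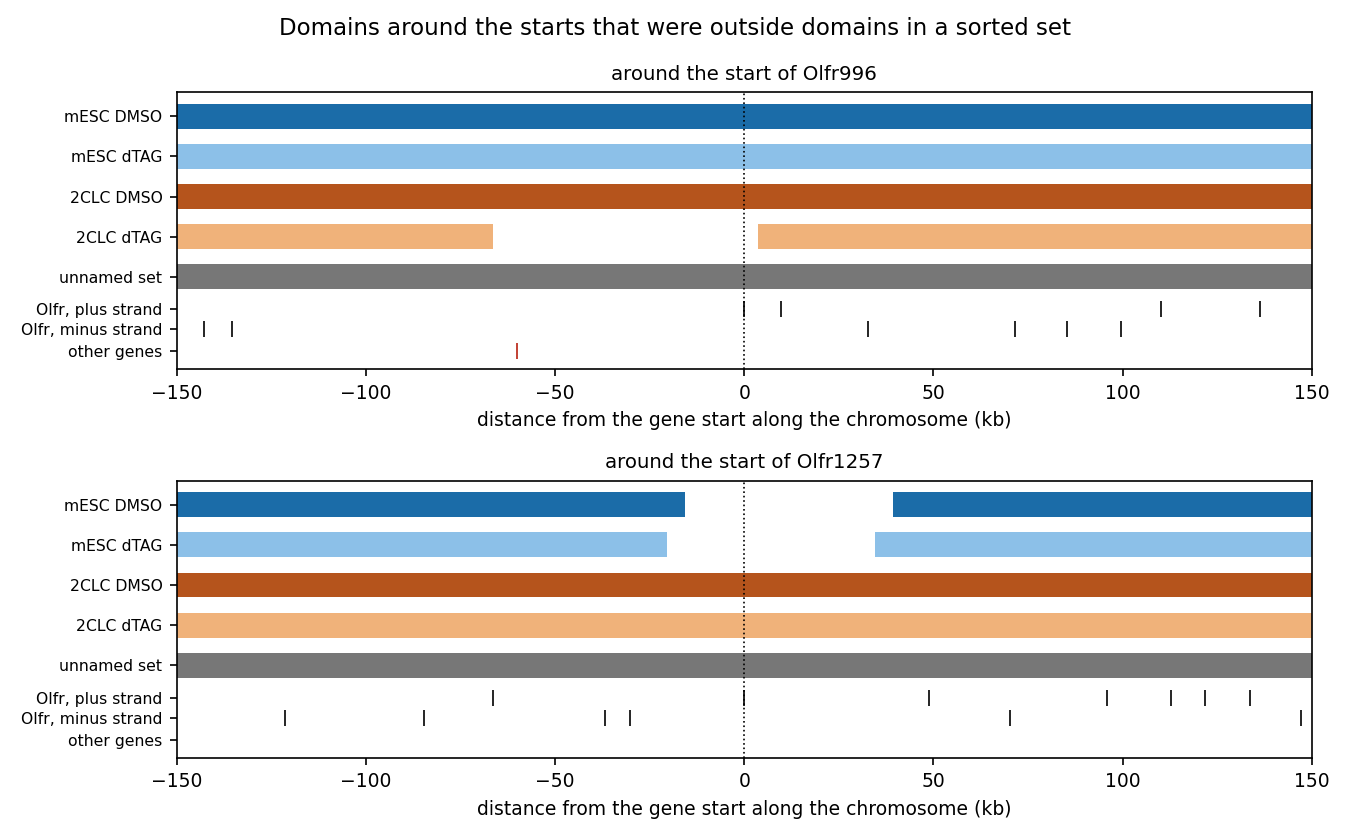
Domains of the 5 lists (coloured bars) within 150 kb of the starts of Olfr996 (top) and Olfr1257 (bottom), with starts of Olfr genes (black ticks) and of another gene (red tick). The x axis is the distance from the gene start along the chromosome in kb. The break at Olfr996 is 70 kb wide and present in 2CLC dTAG, and the breaks at Olfr1257 are 55 kb wide and present in both mESC lists.

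The remaining members lay deep inside their domains. The distance from a start to the nearest domain edge had a median of 376, 733, 1073 and 559 kb. An uncovered stretch of a single 5 kb bin makes edges here too. The second cluster had 2 such bins in mESC DMSO and 0 in mESC dTAG. The medians thus depend on single bins, and their order is not read as a difference in depth between conditions. The shortest distances were 6.37, 9.65, 36.4 and 2.32 kb. Within 10 kb of an edge were 2, 1, 0 and 3 members. The 50 kb on both sides of the start were covered in full for 279, 287, 293 and 280 of the 294 members. A difference of 1 bin in a domain edge could therefore move few of these genes.

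**Figure D4:**
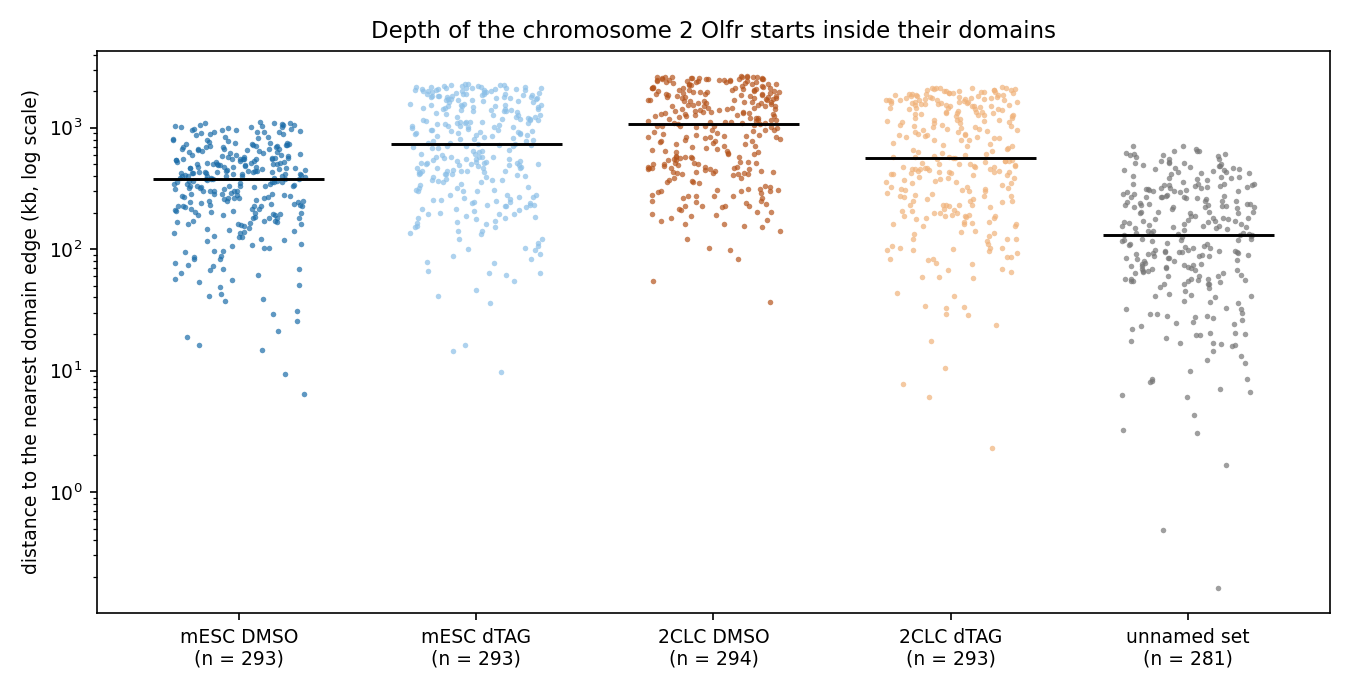
Distance from each member's start to the nearest domain edge (y axis, kb, log scale) for the members inside domains in each of the 5 lists (x axis), with 1 point per gene and a line at the median. The medians are 376, 733, 1073 and 559 kb in the sorted lists and 132 kb in the unnamed set, and single uncovered bins count as edges.

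By bases, the 3 cluster spans together were 6.96 Mb long. Of this length 97.8% was in domains in all 4 sorted conditions, 0% in none of them, and 2.15% (150 kb) in some of them. Of the rest of chromosome 2 (175 Mb), 27.6% was in domains in all 4, 44.7% in none and 27.7% in some. In mESCs, 5 kb of the cluster spans were in domains in DMSO only and 15 kb in dTAG only. In 2CLCs, 80 kb were in domains in DMSO only and 0 kb in dTAG only, and 98.9% of the DMSO domain bases of the clusters were kept in dTAG. Outside the clusters, 67.7% of the DMSO domain bases of chromosome 2 were kept in mESCs and 75.0% in 2CLCs.

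Outside the clusters the domains reached into neighbouring genes to differing extents. Of the 35 other protein-coding genes with a start within 350 kb of a cluster, 6, 4, 7 and 4 were inside domains. Of these, 4 were inside in all conditions, Pdcl after the first cluster and Gm13941, Gm15130 and 4930430A15Rik before the third. Lrrc55, 134 kb before the second cluster, was inside in DMSO and outside in dTAG in both cell states. Ptgs1 (cyclooxygenase-1) before the first cluster and Prg3 (an eosinophil granule protein) before the second were inside in 2CLC DMSO alone among the sorted conditions, and Ano3 before the third in mESC DMSO alone. The 350 kb before the second cluster was covered to 52.3% in DMSO and 33.7% in dTAG in mESCs, and to 65.7% and 38.0% in 2CLCs. On the other side, the 350 kb after the cluster went the opposite way, from 9.70% to 24.0% in mESCs and from 14.0% to 22.6% in 2CLCs. Coverage of the flanks thus differed between DMSO and dTAG in both directions, while inside the cluster each sorted list covered at least 98.4%. Of the 7 other genes inside the second cluster, 7 were inside domains in the first 3 conditions and 6 in 2CLC dTAG, 4833423E24Rik being the exception.

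The Olfr genes of other chromosomes were placed for comparison, without a test of the difference. Of these 841 genes, 86.1% were inside domains in mESC DMSO and 80.3% in mESC dTAG, and 85.9% and 82.2% in 2CLC DMSO and dTAG. In all 4 sorted conditions 70.7% of them were inside, against 99.3% of the chromosome 2 genes. On chromosome 7, which holds 244, the values were 95.5%, 78.7%, 93.9% and 82.4%, and 70.9% were inside in all 4. There 43 of 233 genes left domains in mESCs and 30 of 229 in 2CLCs, where chromosome 2 had 0 of 293 and 1 of 294. Olfr clusters of at least 10 genes numbered 3 on chromosome 2 and 19 elsewhere. Coverage of the chromosome 2 clusters was 98.4% or more in every sorted condition. Elsewhere the median coverage was 89.7%, 77.6%, 91.0% and 81.3%. Coverage was lower in dTAG than in DMSO for 11 of these 19 clusters in mESCs and for 11 of 19 in 2CLCs, by more than 5 percentage points for 8 and 7 of them. The largest fall was -41.0 percentage points in mESCs, at the cluster that starts with Olfr62. In 2CLCs it was -15.5, at the cluster that starts with Olfr56. Coverage was higher in dTAG for 5 clusters in mESCs and 4 in 2CLCs, with rises of up to 35.1 and 32.9 percentage points, both at the cluster that starts with Olfr1370. The clusters of chromosome 2, covered to at least 98.7% in DMSO, had little room to rise. All genes were inside in all 4 conditions in 3 of the 19 clusters and in 2 of the 3 on chromosome 2. High coverage in every condition was thus not limited to chromosome 2.

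**Figure D5:**
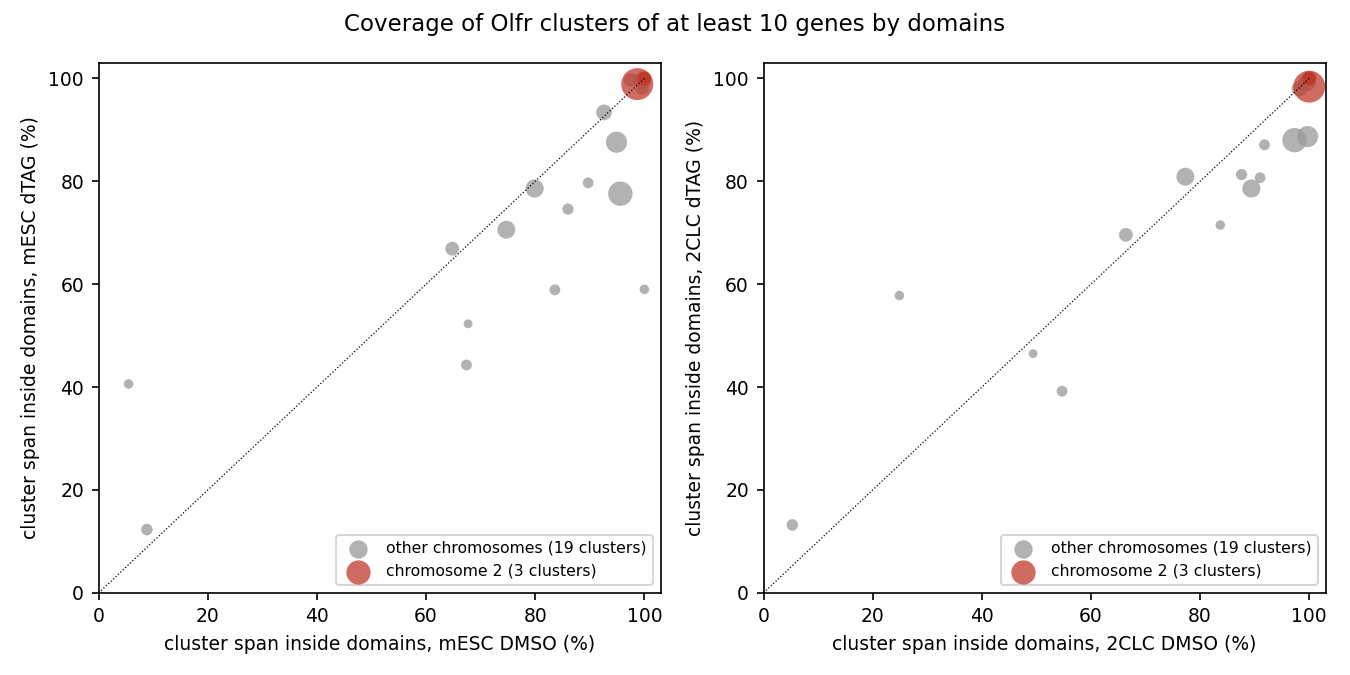
Percent of the span of each Olfr cluster of at least 10 genes inside domains in DMSO (x axis) and in dTAG (y axis), for mESCs (left) and 2CLCs (right), with 1 point per cluster, larger for more genes, and a dotted line of equal values. The 3 clusters of chromosome 2 (red) lie at 98.4% or above on both axes, and the 19 others (grey) reach down to 5.49% in mESC DMSO and 5.27% in 2CLC DMSO.

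The sequence of the clusters differed from that of the rest of the chromosome in ways the selection did not use. The GC content of the 3 spans was 37.4%, against 42.3% of the rest. Repeats masked in the assembly made up 50.2% of the spans and 31.4% of the rest. Every 50-mer was marked where it occurred more than once on chromosome 2 on either strand, and such 50-mers covered 15.5% of the spans (14.5%, 15.6% and 15.9% in order along the chromosome) and 7.5% of the rest. For gene bodies the share was taken gene by gene and not pooled over bases. It had a median of 2.98% and exceeded 50% in 2 of 294. Reads from repeated sequence can be placed at several copies, and how this bears on the domains was not tested. Copies on other chromosomes were not counted in these shares. The stretch around Olfr1257 was 28.5% repeated in mESC DMSO and 29.9% in mESC dTAG, above the clusters as a whole, although the gene itself held 0% repeated 50-mers. The stretch around Olfr996 was 5.88% repeated, below the clusters as a whole, and the gene 23.3%. None of the stretches held unsequenced bases.

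A list of 20 other genes was also placed, and 3, 2, 1 and 2 of them were inside domains. It was made up of olfactory signalling genes, regulators, and genes of nuclear or chromatin proteins (Lbr, Kdm1a and Cbx5). These shares of 20 genes stand beside the 22.3% to 26.5% of all genes given above. Cnga2, a subunit of the cyclic nucleotide-gated channel that opens after receptor activation, was inside in all 4. Gnal, the G protein subunit that couples the receptors to adenylyl cyclase, was inside in dTAG and outside in DMSO in both cell states. Ano2, the calcium-activated chloride channel of olfactory cilia, and Rtp2, which helps carry receptors to the cell surface, were inside in mESC DMSO alone. The remaining 16 were outside in all sorted conditions, among them Adcy3, the adenylyl cyclase of the pathway, Omp, the marker of mature olfactory neurons, and Lhx2, Ldb1 and Ebf1 to Ebf4, which code for regulators of receptor gene choice or of olfactory neuron differentiation. Of the receptor genes on chromosome 2, by contrast, at most 1 was outside in any sorted condition.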

How the data were processed

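H3K9me2 was profiled by ULI-NChIP in 28 libraries (14 immunoprecipitations, 14 inputs). Per the study's methods, the authors aligned reads with STAR in a mode that places reads with several matches, removed duplicates and regions of artificially high signal, scaled coverage to genome content without chromosomes X and M, averaged it in 10 kb windows on a 5 kb step, ignored locations without signal, and took the log2 ratio of immunoprecipitation to input. Domains were bins above the 80th percentile, extended to bins below the 30th. Whether replicates were pooled, and whether percentiles were set per list, was not given in the sources used here. The submitters' processing notes name STAR 2.7.10, Picard 2.26.0, SAMtools 1.14, bedtools 2.30.0 and deepTools 3.5.1. The deposited files hold positions in mm10, and their score was 0 in every row, so neither level nor depth was available. If percentiles were set per list, domain positions need not follow the amount of the mark.

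Gene starts came from GENCODE M21 and sequences from GRCm38.p6. Starts, cluster spans and 50-mers were computed with Python 3.11.15, numpy 2.4.6 and pandas 2.3.3, and the placement was tested on simulated domains. No test was made, as no condition has replicate values. Clusters are named by their first and last gene, and genes whose start differed between the 4 sorted lists are named. Alternatives were domains of at least 50 kb, edges moved by 1 bin of 5 kb, other criteria for a gene inside, pseudogenes, clusters left out, and other gaps and spans. The members, lists and rules were chosen with earlier results of these data known.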

Additional observations from a re-analysis of the deposited data

How the results depend on the processing

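Of 123 values recomputed under another choice, 31 changed, counting shares of genes that went past their exact interval, counts that went past 1.5 times, and covered shares that changed at all at the precision printed, and the other 92 did not. The number of clusters was 3 with a gap of 0.5, 1 or 2 Mb. Shortening domains by 1 bin at both ends raised the genes that left from 1 to 2 (Olfr996 and Olfr1032) between DMSO and dTAG in 2CLCs and between mESC dTAG and 2CLC dTAG. Lengthening them by 1 bin lowered both counts to 0, since Olfr996 was then inside, and gave shares of 100.0% in 2CLC dTAG and 98.3% in the unnamed set. Olfr1257 was outside in both mESC lists under every setting that kept its cluster. With at least 50% of the 50 kb on either side as the criterion, the unnamed set stood at 98.6%. Without the largest cluster, the shares were 100.0% in mESC DMSO, mESC dTAG and 2CLC dTAG and 98.5% in the unnamed set, and 0 genes left or entered in any comparison, since both genes lie in that cluster. With 100 kb added on both sides, coverage was 94.4%, 94.4%, 94.0% and 94.4% for the first cluster in mESC DMSO, mESC dTAG, 2CLC DMSO and 2CLC dTAG (90.1% in the unnamed set), 97.3%, 97.2%, 99.0% and 97.2% (96.0%) for the second, and 96.3%, 96.3%, 98.1% and 98.1% (90.8%) for the third, because the added flanks are only partly in domains. With domains of at least 50 kb, coverage of the second cluster in the unnamed set was 95.8%. No paired analysis was possible because each condition is a single list, and for the same reason no replicate could be left out. Depth and enrichment behind each edge are unknown.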

Other observations

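The unnamed set broke the clusters more often than any sorted list. It held 14 uncovered stretches of 5 to 65 kb (median 7.5 kb) inside the 3 spans, 7 of them a single bin, and 10 held the start of a receptor gene. The 13 members outside its domains were Olfr1025-ps1, Olfr1043, Olfr1045, Olfr1051, Olfr1052, Olfr228, Olfr1080, Olfr1153, Olfr1154, Olfr1167, Olfr1168, Olfr1176 and Olfr1313, of which 12 lie in the second cluster and Olfr1313 in the third. Olfr996 and Olfr1257 were inside. Each of its 14 uncovered stretches was covered in full in all 4 sorted lists, and each of the 7 stretches of the sorted lists was covered in full in the unnamed set. The second cluster was held by 12 domains with 96.3% of its span covered, the first by 2 (98.4%) and the third by 3 (96.2%). Its widest stretches were 65 kb around Olfr1153 and Olfr1154 and 60 kb around Olfr1167 and Olfr1168, with 41.1% and 33.1% repeated 50-mers. The 14 stretches together were 240 kb long and 29.1% repeated. The 7 of the sorted lists summed to 200 kb with 18.3% repeated, where bases shared by the mESC stretches at Olfr1257 were counted once per list. Their distinct sequence was 150 kb long. By list, the stretches were 24.5% repeated in mESC DMSO, 29.9% in mESC dTAG and 5.45% in 2CLC dTAG. The cells behind this list are not known from the labels, so its values were set beside those of the sorted lists without a comparison of conditions.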
